A study of Rattus norvegicus with 72 samples.

Results

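The levels of 5 genes of the circadian clock were followed in rats after removal of the right kidney: Arntl, Npas2, Clock, Cry1 and Nfil3. They were taken by symbol from the count tables, where each of the 5 symbols belongs to 1 of the 32545 gene IDs, and their levels are given in all 18 groups of sample kind, surgery and time. All groups came from adult male Sprague-Dawley rats, an outbred strain, on normal chow. In nephrectomy groups the right kidney was excised, and in sham groups only its pedicle was dissected, in both cases under anaesthesia. RNA was sequenced 24, 48 or 72 h later from microdissected glomeruli, microdissected S1 proximal tubules or whole kidney, with 4 libraries in each group. The labels give neither the time of day of collection nor whether each library of a group is a rat of its own, and the p-values therefore cover only the differences among these libraries, part of which may be technical.

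The clock is a feedback loop of transcription. Arntl (also called Bmal1) pairs with Clock, or with its relative Npas2, and the pair switches on genes that carry E-boxes, among them the Per and Cry genes, Nr1d1, Nr1d2 and Dbp. Per and Cry proteins then inhibit the pair, and the receptors Nr1d1 and Nr1d2 repress Arntl, Npas2, Clock, Cry1 and Nfil3 at ROR elements, where Rora and its relatives activate. Nfil3 encodes a repressor that competes with Dbp, Tef and Hlf for D-boxes. In mammalian tissues Arntl and Npas2 peak when Dbp and Nr1d1 are low, and Cry1 peaks later than its fellow E-box genes. In the kidney the clock is known for the daily rhythm of filtration and of salt and water excretion.

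The upstream sequences of Arntl and Npas2 are shown because these genes passed a test between times after nephrectomy in whole kidney, described further on. They are the 250 bases before the start site in RefSeq's GRCr8 assembly, both on the plus strand, with a ROR element core (AGGTCA) in capitals.
Arntl, chr1:176766078-176766327: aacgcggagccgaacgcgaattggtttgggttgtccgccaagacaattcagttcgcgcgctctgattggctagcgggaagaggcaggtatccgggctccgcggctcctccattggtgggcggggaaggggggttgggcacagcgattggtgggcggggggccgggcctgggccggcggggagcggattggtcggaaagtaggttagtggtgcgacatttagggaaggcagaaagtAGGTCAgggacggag
Npas2, chr9:48959315-48959564: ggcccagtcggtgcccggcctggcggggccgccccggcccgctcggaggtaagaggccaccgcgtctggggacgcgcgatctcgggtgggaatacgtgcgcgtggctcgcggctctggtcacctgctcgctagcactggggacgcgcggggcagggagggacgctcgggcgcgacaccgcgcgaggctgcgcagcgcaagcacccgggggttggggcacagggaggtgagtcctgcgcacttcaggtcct
Windows from 250 bases before to 50 bases after the start were searched on both strands for the E-box CACGTG, the core AGGTCA and the D-boxes TTATGTAA and TTACGTAA. These motifs do not overlap one another. The core lies 15 to 10 bases before the Arntl start (chr1:176766313-176766318), and none of the motifs was found in the windows of Npas2, Nfil3 or either of the 2 Clock starts. Of all 33469 RefSeq windows of this length, 16.2% hold the core, 6.42% the E-box and 1.01% a D-box. A match is a description of these letters and not of a bound site. Cry1 was not matched to an entry.

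Before any comparison, some libraries stood apart. The sham 24 h libraries numbered 2 of the 2 segments went against their labels: the one labelled glomeruli had a mean of 2.67 over 6 podocyte genes and 10.25 over 7 proximal tubule genes (log2 CPM), and the one labelled S1 tubules had 9.82 and 6.6. In the other 23 glomerulus libraries the podocyte genes averaged 9.4 to 10.82 and the proximal tubule genes 3.24 to 6.03, and in the other 23 of S1 tubules the podocyte genes averaged 0.89 to 3.27 and the proximal tubule genes 7.84 to 10.29, as their labels say. This pair was left out of the comparisons, which leaves 3 sham libraries at 24 h in each segment. Arntl was at 1 CPM of the library total in the pair's library labelled glomeruli and at 10.3 CPM in the one labelled S1 tubules. In whole kidney the 24 h libraries numbered 3 and 4 had podocyte means of 1.55 and 1.86 after nephrectomy and 1.79 and 3.71 after sham surgery, against 4.32 to 5.42 in the 24 h libraries numbered 1 and 2. They were kept, and results that depend on them are given with and without. Gene counts per library ran from 2.64 to 37.4 M (1000000 counts) for glomeruli, 7.88 to 87.4 M for S1 tubules and 10.1 to 55.5 M for whole kidney. The lowest in glomeruli was nephrectomy 72 h replicate 3, where genes took 2.92% of reads in genes, outside genes or ambiguous. Other glomerulus libraries used had 13.3 to 40.1%. In S1 tubules nephrectomy 72 h replicate 2 was the lowest and had 8.05%, against 35.6 to 77.4% in the others. In whole kidney nephrectomy 24 h replicate 3 was the lowest. Of its reads 93.9% had no unique alignment, against 32.1 to 72.2% in the others. These libraries were kept. Unless said otherwise, levels are counts per 1000000 gene counts (CPM) after scaling by TMM factors, which are set per sample kind, and each error is an SD over libraries.

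Between genes, levels were compared per length of transcript, in the deposited RPKM (segments) and FPKM (whole kidney). Clock, the partner of Arntl, was the most abundant of the 5 transcripts in each sample kind, with a median of 29.7 RPKM for glomeruli, 19.2 RPKM for S1 tubules and 10.1 FPKM for the whole kidney. Arntl had medians of 3.74 RPKM, 0.649 RPKM and 2.89 FPKM in the same order. The alternative partner, Npas2, had medians of 1.13 RPKM, 1.23 RPKM and 0.577 FPKM. Cry1 stood at 5.14 RPKM, 1.87 RPKM and 1.47 FPKM, and Nfil3 at 5.78 RPKM, 1.23 RPKM and 1.07 FPKM. RPKM and FPKM were made from different library kits and are not compared with each other.

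The genes differed in how far they ranged over libraries. In whole kidney Clock lay between 53.3 and 82 CPM, a 1.54-fold range, while Arntl ranged 8.77-fold, Npas2 19.4-fold, Nfil3 9.11-fold and Cry1 4.1-fold. In the segments Clock ranged 4.9-fold in glomeruli and 4.5-fold in S1 tubules. The lowest counts were small, 4 reads for Npas2 in 1 glomerulus library and 11 for Nfil3 in 1 S1 library, so the extremes of these ranges carry large counting errors.

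**Figure D1:**
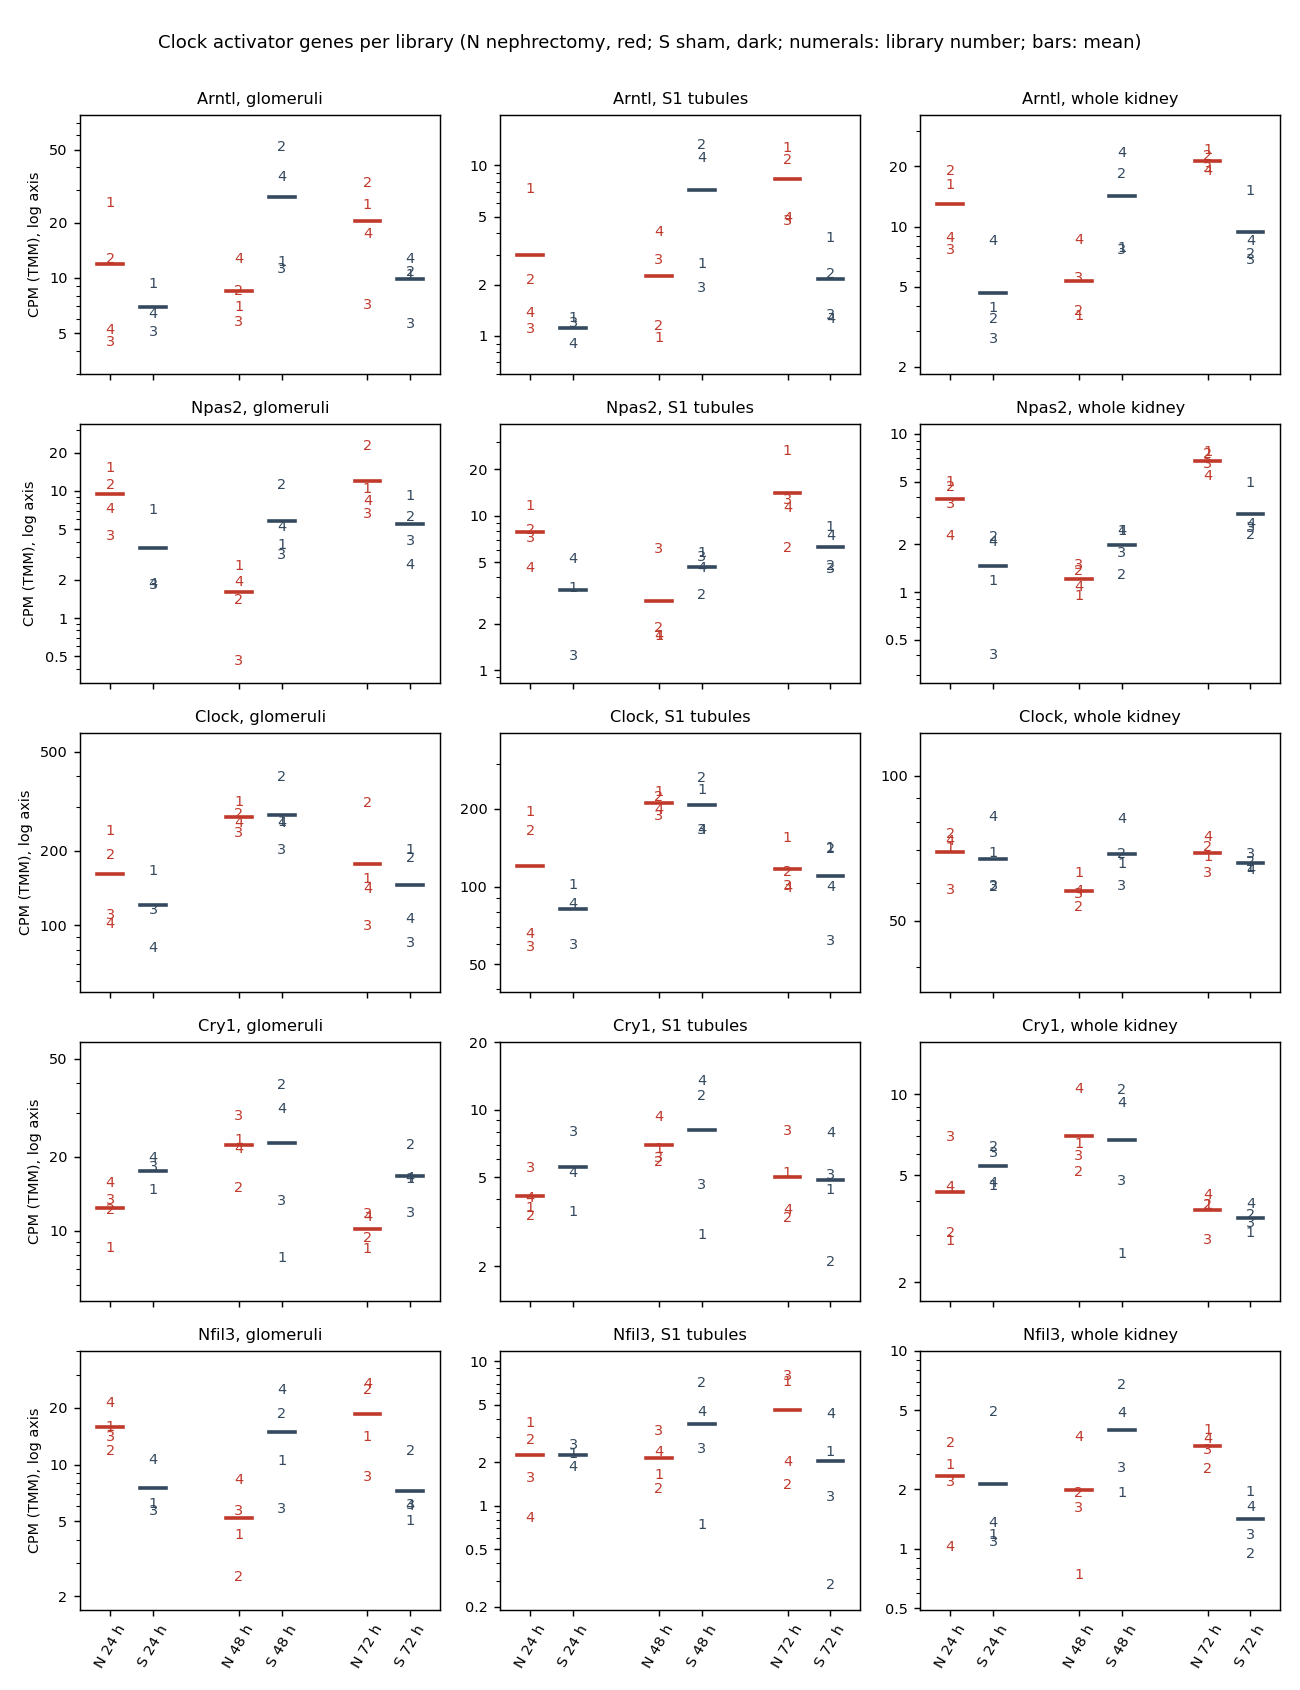
Level of each gene (rows) in each sample kind (columns) per library, in TMM-scaled CPM on a log axis, for nephrectomy (N, red) and sham (S, dark) at 24, 48 and 72 h; numerals are library numbers and bars are group means. In whole kidney at 72 h the Arntl libraries after nephrectomy lie at 19.1 to 24.1 CPM, above sham at 6.81 to 15 CPM.

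Arntl, the activator at the centre of the loop, was measured at 16.1, 19.1, 7.67 and 8.83 CPM in whole kidney 24 h after nephrectomy, against 3.91, 3.47, 2.75 and 8.51 CPM after sham surgery. Among nephrectomy libraries 3 of 4 were above all sham libraries, and the groups overlapped. At 48 h it was at 3.58, 3.79, 5.57 and 8.6 CPM after nephrectomy, against 7.82, 18.3, 7.62 and 23.4 CPM after sham surgery. Here nephrectomy was mostly the lower group, again with an overlap. At 72 h it was at 24.1, 22.5, 19.7 and 19.1 CPM after nephrectomy, against 15, 7.31, 6.81 and 8.44 CPM after sham surgery, and the groups did not overlap.

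The log2 fold changes of Arntl in whole kidney were 1.48 ± 0.41 (SE) at 24 h, -1.42 ± 0.40 at 48 h and 1.19 ± 0.39 at 72 h, with edgeR adjusted p of 0.112, 0.178 and 0.738. None passed the threshold of 0.05. The test of a difference of the nephrectomy effect between times gave an edgeR adjusted p of 0.0953 for Arntl. Without the 24 h libraries numbered 3 and 4, the 24 h fold change was 2.25 and passed, as did 16.4% of all genes, and the difference between times passed with an adjusted p of 0.00321, beside 11.4% of all genes. The libraries that then remain at 24 h had proximal tubule means (log2 CPM) of 7.49 and 7.47 after nephrectomy, against 9.21 and 9.62 after sham surgery. Their mitochondrial shares were 66.3 and 64.6% after nephrectomy, against 49.2 and 36% after sham surgery. The part of these values in the result was not tested. Leaving out only sham 24 h replicate 4 also brought both past the threshold, with a 24 h fold change of 1.96 (edgeR adjusted p = 0.036) and an adjusted p of 0.0285 for the difference between times. With 1 library left out in turn, 1 to 364 of all genes passed at 24 h and 3 to 18 for the difference between times.

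In glomeruli Arntl was at 25.5, 12.7, 4.49 and 5.19 CPM 24 h after nephrectomy, against 9.29, 5.08 and 6.35 CPM after sham surgery. At 48 h it was at 6.91, 8.52, 5.78 and 12.6 CPM after nephrectomy, against 12.2, 51.6, 11.2 and 35.3 CPM after sham surgery. At 72 h it was at 24.8, 33, 7.13 and 17.3 CPM after nephrectomy, against 10.3, 10.8, 5.62 and 12.7 CPM after sham surgery. The groups overlapped at each of the 3 times, and the log2 fold changes of 0.80, -1.71 and 1.08 did not pass by edgeR.

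In S1 tubules Arntl was at 7.31, 2.12, 1.1 and 1.37 CPM 24 h after nephrectomy, against 1.27, 1.19 and 0.896 CPM after sham surgery. At 48 h it was at 0.975, 1.15, 2.8 and 4.06 CPM after nephrectomy, against 2.64, 13.2, 1.92 and 11.1 CPM after sham surgery. At 72 h it was at 12.7, 10.7, 4.75 and 4.92 CPM after nephrectomy, against 3.77, 2.31, 1.33 and 1.25 CPM after sham surgery, and only at this time did the groups not overlap. The log2 fold changes were 1.41, -1.69 and 1.92, and the last had an edgeR adjusted p of 0.279. The sign of the Arntl fold change was thus positive at 24 and 72 h and negative at 48 h in the 3 sample kinds. The sign held under each other setting tried and with any 1 library left out, but the size at 24 h in the segments rested on 1 library. Without nephrectomy 24 h replicate 1 it was 0.11 in glomeruli and 0.49 in S1 tubules.

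Npas2, which can replace Clock as the partner of Arntl, had fold changes of the same signs as Arntl in the 3 sample kinds. In whole kidney it was at 4.94, 4.65, 3.62 and 2.27 CPM 24 h after nephrectomy, against 1.18, 2.22, 0.399 and 2.07 CPM after sham surgery, with no overlap. At 48 h it was at 0.947, 1.36, 1.49 and 1.08 CPM after nephrectomy, against 2.43, 1.28, 1.75 and 2.43 CPM after sham surgery. At 72 h it was at 7.72, 7.45, 6.44 and 5.4 CPM after nephrectomy, against 4.92, 2.28, 2.53 and 2.7 CPM after sham surgery, again with no overlap. The log2 fold changes were 1.39 ± 0.37, -0.69 ± 0.36 and 1.12 ± 0.34 (SE), with edgeR adjusted p of 0.094, 0.52 and 0.668. The 24 h change passed without the libraries numbered 3 and 4 (1.46) and without sham 24 h replicate 2 (1.66, adjusted p = 0.0493). Over the 3 times the change was 0.61 ± 0.21 (SE, edgeR adjusted p = 0.115), and it passed in the same 2 settings (0.64 without the libraries numbered 3 and 4, where 4.87% of all genes passed, and 0.69 with an adjusted p of 0.0486 without sham 24 h replicate 2). With 1 library left out in turn, 1 to 364 of all genes passed at 24 h and 242 to 1070 over the 3 times.

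In glomeruli Npas2 was lower in all 4 nephrectomy libraries at 48 h, at 2.59, 1.4, 0.463 and 1.93 CPM, than in the sham libraries at 3.79, 11.2, 3.16 and 5.24 CPM. Its log2 fold change there was -1.87 ± 0.61 (SE) and did not pass. At 24 and 72 h the glomerular fold changes of Npas2 were 1.40 and 1.12, and those in S1 tubules were 1.28, -0.73 and 1.17 at 24, 48 and 72 h, none of them past the threshold. With 1 library left out they moved to 2.17 in glomeruli at 24 h (without sham replicate 1) and to 0.62 there at 72 h (without nephrectomy replicate 2). In S1 tubules they moved to -1.34 at 48 h (without nephrectomy replicate 3) and to 0.54 at 72 h (without nephrectomy replicate 1).

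Nfil3, the D-box repressor, was at 15.9, 11.8, 14 and 21.2 CPM in glomeruli 24 h after nephrectomy, against 6.19, 5.67 and 10.6 CPM after sham surgery, with no overlap. At 48 h it was at 4.21, 2.54, 5.67 and 8.31 CPM after nephrectomy, against 10.5, 18.4, 5.83 and 25 CPM after sham surgery, and at 72 h at 14.1, 24.8, 8.56 and 26.8 CPM after nephrectomy, against 5, 11.8, 6.14 and 6.05 CPM after sham surgery. The groups overlapped at both times. The log2 fold changes of 1.08, -1.53 and 1.36 did not pass. In whole kidney the fold changes of Nfil3 were 0.12 ± 0.51 (SE) at 24 h, -1.04 at 48 h and 1.23 at 72 h. At 72 h its 4 whole kidney libraries after nephrectomy (2.53 to 3.99 CPM) lay above the 4 after sham surgery (0.938 to 1.93 CPM), though the test did not pass. In S1 tubules its groups overlapped at each time, with fold changes of -0.01, -0.78 and 1.21.

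The fold changes of Clock itself were small in whole kidney. They were 0.05 ± 0.12, -0.25 ± 0.12 and 0.07 ± 0.12 (SE) at 24, 48 and 72 h, and the 95% interval over the 3 times was -0.19 to 0.10. Its group means lay between 57.6 ± 3.91 CPM 48 h after nephrectomy and 69.5 ± 7.94 CPM 24 h after nephrectomy (n = 4 each). In the segments the fold changes of Clock were between -0.03 and 0.56, with standard errors of 0.34 to 0.39, so changes of this size there could not be told from none.

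Cry1, a repressor of the Arntl pair, was grouped here with Arntl. Its whole kidney fold changes were -0.38, 0.05 and 0.09 at 24, 48 and 72 h. Those at 24 and 48 h were opposite in sign to those of Arntl. The one at 48 h ran from -0.23 to 0.32 with 1 library left out. In glomeruli at 72 h Cry1 was at 8.4, 9.32, 11.7 and 11.4 CPM after nephrectomy, against 16.3, 22.2, 11.8 and 16.3 CPM after sham surgery. Nephrectomy was the lower group there with no overlap, at the time when Arntl, Npas2 and Nfil3 had positive fold changes, but the difference of -0.72 ± 0.37 (SE) did not pass. Over all libraries the Pearson r of Cry1 with Arntl (log2 CPM) was 0.02 for glomeruli, 0.17 for S1 tubules and -0.21 for whole kidney, where the libraries share their depth and scaling. With Arntl, Npas2 had r of 0.59, 0.44 and 0.77, Nfil3 0.55, 0.48 and 0.60, and Clock 0.60, 0.41 and 0.58 in the same order. A shared phase of the 5 genes over the day cannot be judged from these libraries, since collection times are not given.

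**Figure D2:**
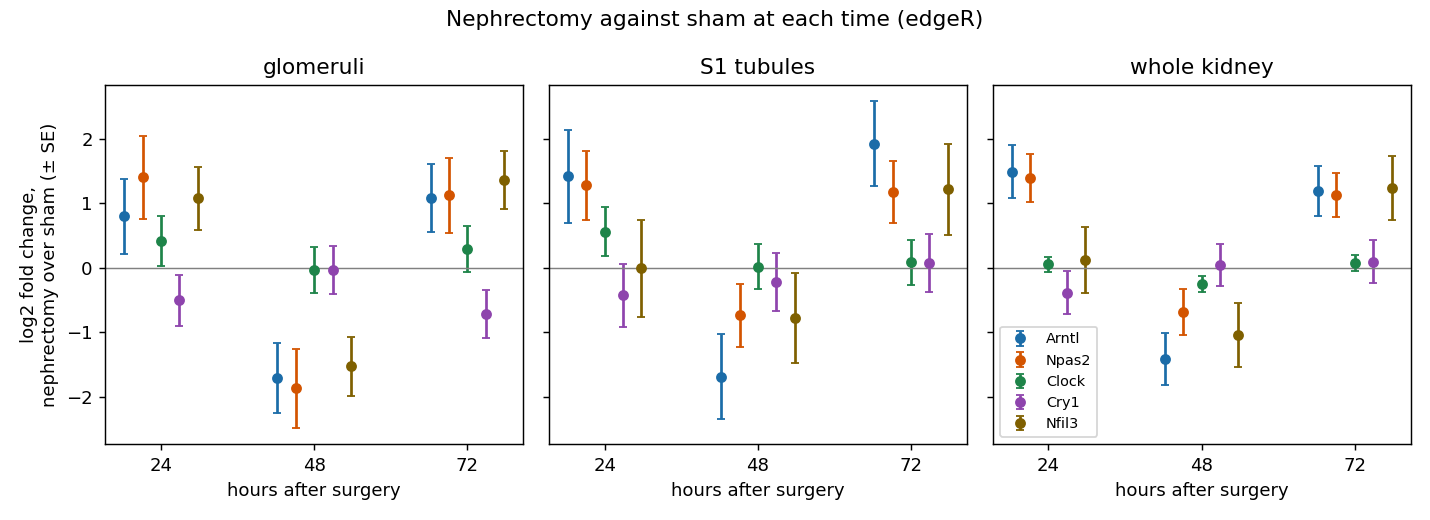
Log2 fold change of nephrectomy over sham for each gene (colours) at 24, 48 and 72 h in the 3 sample kinds, with bars of ± 1 SE from edgeR. Arntl and Npas2 lie above 0 at 24 and 72 h and below 0 at 48 h in each sample kind, with Arntl in whole kidney at 1.48, -1.42 and 1.19, while Clock in whole kidney lies at 0.05, -0.25 and 0.07.

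Counted over the 3 sample kinds and 3 times, 6 of 45 gene and time combinations had all nephrectomy libraries above all sham libraries, 2 had them all below and 37 overlapped. Of the combinations of all genes tested, 1.88% had them all above and 1.99% all below. In whole kidney at 72 h, where 3 of the 5 genes had them all above, 5.33% of all genes did. By edgeR, 0 of 5 genes passed between nephrectomy and sham at 24, 48 or 72 h, or over the 3 times, in any sample kind. Of all genes tested, 0% passed in glomeruli and 0% in S1 tubules in each of these comparisons. In whole kidney 0.236% passed at 24 h (0.0893% higher and 0.147% lower after nephrectomy), 0% at 48 h, 0.00638% at 72 h and 2.86% over the 3 times (1.69% higher and 1.17% lower). At an unadjusted p under 0.05, whole kidney had 2 of the 5 at 24 h, 3 at 48 h, 3 at 72 h and 1 over the 3 times, beside 12.9%, 10.3%, 5.2% and 17.5% of all genes. Glomeruli had 2, 3, 1 and 0, beside 0.919%, 1.36%, 2.9% and 2.11%, and S1 tubules 1, 1, 2 and 0, beside 0.729%, 1.96%, 13.2% and 2.54%. DESeq2 called Arntl and Npas2 in whole kidney at 24 h (1.96% of all genes), Arntl there at 48 h (1.06%), Arntl in S1 tubules at 72 h (4.05%), and no other member in these comparisons. The median log2 fold change of the 5 in whole kidney was 0.12, -0.69 and 1.12 at 24, 48 and 72 h, beside medians of -0.02, 0.01 and 0.00 over all genes.

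The effect of nephrectomy was next tested for a difference between times, where 0 of 5 passed by edgeR in each sample kind, beside 0.00446% of all genes for glomeruli, 0.0109% for S1 tubules and 0.0191% for whole kidney. Unadjusted, p was under 0.05 for 3 of 5 in glomeruli, for 2 in S1 tubules and for 3 in whole kidney, beside 1.04%, 7.15% and 4.99% of all genes. DESeq2 called Nfil3 in glomeruli (0.0357% of all genes) and Arntl and Npas2 in whole kidney (0.325%). Time after sham surgery was tested in the same way, and 0 of 5 passed, beside 0.0223%, 0% and 0.0765% of all genes. Unadjusted, 3, 2 and 4 of 5 had p under 0.05, beside 11%, 5.11% and 12.6% of all genes. DESeq2 called Arntl and Clock in glomeruli (2.72% of all genes), Clock in S1 tubules (0.882%) and Arntl in whole kidney (2.07%). By edgeR, Arntl passed there without the 24 h libraries numbered 3 and 4 (adjusted p = 0.0297), as did 10.4% of all genes, and Nfil3 without sham 24 h replicate 2 (0.0494). With 1 library left out in turn, 4 to 365 of all genes passed there.

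Between times after nephrectomy some of the 5 genes passed by edgeR, and each call was lost in some settings. These calls do not set nephrectomy apart from sham surgery, since 0 of 5 passed for the difference of the effect between times. In whole kidney Npas2 (edgeR adjusted p = 0.0142) and Arntl (0.0438) passed, 2 of 5 genes, beside 0.638% of all genes tested. Npas2 averaged 3.87 ± 1.21 CPM at 24 h, 1.22 ± 0.248 at 48 h and 6.75 ± 1.06 at 72 h, log2 differences from 24 h of -1.67 at 48 h and 0.79 at 72 h. Arntl averaged 12.9 ± 5.54, 5.38 ± 2.32 and 21.4 ± 2.36 CPM, with differences of -1.29 and 0.70 from 24 h. The call of Arntl was lost with 11 of the 12 nephrectomy libraries left out in turn (adjusted p up to 0.113) and held only without the 48 h replicate 4. That of Npas2 was lost without the 48 h replicate 1 (0.0527). Both were lost when library totals replaced TMM factors (0.0824 for Arntl and 0.0688 for Npas2).

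In S1 tubules Npas2 passed between times after nephrectomy, 1 of 5, beside 1.41% of all genes (edgeR adjusted p = 0.0481). It averaged 7.87 ± 2.89 CPM at 24 h, 2.82 ± 2.17 at 48 h and 14 ± 8.53 at 72 h. The call was lost without any 1 of the 24 h libraries (0.0621 to 0.0778) or the 48 h libraries (0.164 to 0.243). It was also lost with library totals (0.101), without mitochondrial genes (0.0678) and with the pair of sham 24 h libraries numbered 2 (0.101). In glomeruli 0 of 5 passed, beside 0.00893% of all genes. Unadjusted, 3 of 5 had p under 0.05 there, beside 19.9% of all genes, and Npas2 came nearest (adjusted p = 0.0703). DESeq2 called Npas2 and Nfil3, beside 10.6% of all genes. Npas2 and Nfil3 also passed in edgeR without the nephrectomy 72 h replicate 2 (0.026 and 0.0442). With 1 library left out in turn, 2 to 1790 of all genes passed there. Npas2 averaged 9.5 ± 4.69, 1.6 ± 0.9 and 12 ± 7.22 CPM at the 3 times in glomeruli, so 48 h was its lowest time after nephrectomy in each sample kind.

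Ordered by mean level over the 6 groups of a sample kind, few neighbours stood clear of one another. The gap to the next group was within the larger of the 2 SDs for 70 of 75 neighbouring pairs. In whole kidney Arntl was highest 72 h after nephrectomy, followed by sham 48 h (14.3 ± 7.84 CPM), nephrectomy 24 h, sham 72 h (9.4 ± 3.82), nephrectomy 48 h and sham 24 h (4.66 ± 2.61). Of these gaps only that between sham 72 h and nephrectomy 48 h went beyond the larger SD. For Npas2 the gap below nephrectomy 72 h did, and the next was nephrectomy 24 h. The remaining gaps of this kind were those of Clock. In S1 tubules it was highest at nephrectomy 48 h (210 ± 21.2 CPM) and sham 48 h (208 ± 49.7), above nephrectomy 24 h (121 ± 69.2). In glomeruli it was highest at sham 48 h (279 ± 83.4) and nephrectomy 48 h (272 ± 33.5), above nephrectomy 72 h (176 ± 92.5). In whole kidney it was lowest at nephrectomy 48 h (57.6 ± 3.91), below sham 72 h (65.7 ± 2.17).

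The spread within groups was wide, and 1 group showed it most plainly. Among the sham 48 h libraries of whole kidney, numbers 1 to 4 had Arntl at 7.82, 18.3, 7.62 and 23.4 CPM and Nr1d1, the repressor of Arntl, at 20.5, 1.94, 23 and 3.14 CPM. Numbers 2 and 4 had the higher Arntl, Cry1 and Nfil3 in all 3 sample kinds, and the lower Nr1d1 and Dbp. Arntl was at 35.3 and 51.6 CPM in glomerulus libraries 4 and 2, and at 11.2 and 12.2 CPM in numbers 3 and 1. Cry1 was at 31.2 to 39 CPM in glomerulus libraries 2 and 4 and at 7.78 to 13.2 CPM in 1 and 3. Npas2 divided in this way in glomeruli alone (5.24 to 11.2 CPM in numbers 2 and 4, against 3.16 to 3.79 in 1 and 3). In S1 tubules numbers 2 and 4 were the lower for Npas2 (3.05 and 4.58 CPM, against 5.39 to 5.71), and in whole kidney they overlapped with 1 and 3. For Clock they were the higher in whole kidney (68.8 and 81.4 CPM, against 59 and 65.6) and overlapped with 1 and 3 in both segments. For Per1 they were the lower in all 3 sample kinds, and for Per2 they overlapped with 1 and 3 in each. These libraries were kept in all comparisons, and the 48 h comparisons with sham rest on them. Gene counts of the 4 whole kidney libraries were 40.8 to 41.8 M, and their mitochondrial shares were 59.1, 47.7, 63.6 and 57.7% in numbers 1 to 4. Their podocyte means were 5.11 to 5.39 and their proximal tubule means 8.18, 9.09, 7.61 and 8.64 (log2 CPM). The part of any of these values in the result was not tested.

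**Figure D3:**
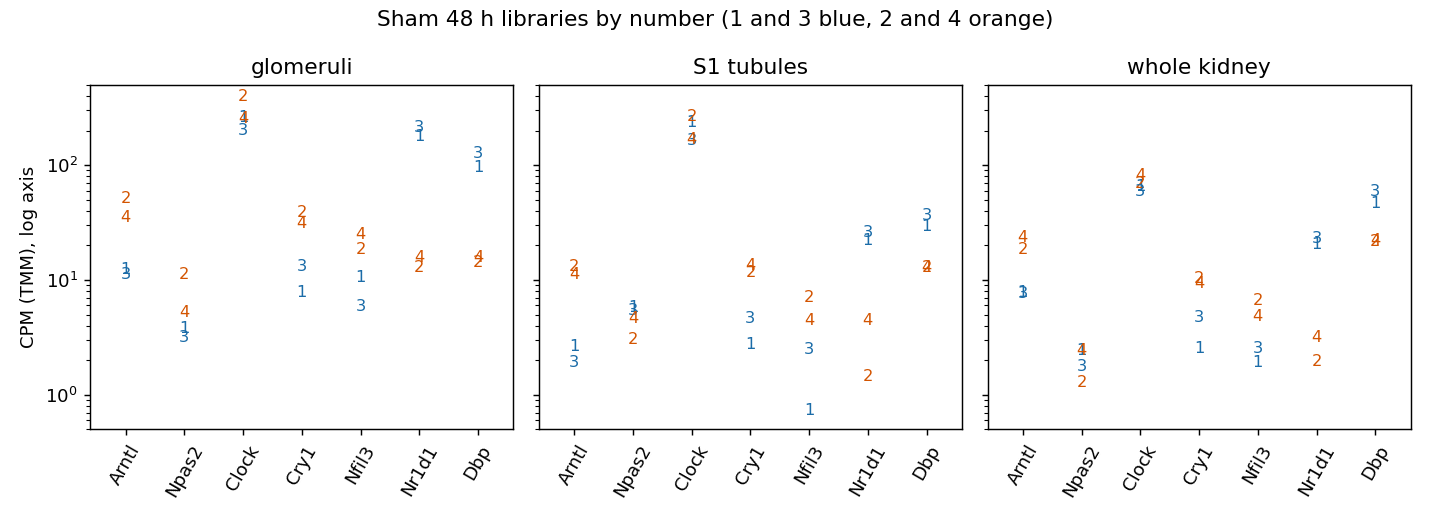
Level of the 5 genes and of Nr1d1 and Dbp in the 4 sham 48 h libraries of each sample kind, in TMM-scaled CPM on a log axis, with numerals for the library number (1 and 3 blue, 2 and 4 orange). Numbers 2 and 4 lie above 1 and 3 for Arntl, Cry1 and Nfil3 in each sample kind and below them for Nr1d1 and Dbp.

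Libraries with the same number were compared between sample kinds, after the mean of each group was subtracted from log2 CPM. The labels do not say whether such libraries come from 1 rat. Arntl was correlated in each pairing over 23 numbers, with Pearson r of 0.79 between glomeruli and S1 tubules, 0.63 between glomeruli and whole kidney and 0.72 between S1 tubules and whole kidney. The permutation p for r was 0.00079, 0.00735 and 0.00219, or 0.00593, 0.0158 and 0.00821 when adjusted over the 15 relations of this family. Spearman rho was 0.80, 0.67 and 0.78, with permutation p of 0.00073, 0.00598 and 0.00114 (adjusted 0.00548, 0.015 and 0.0057). Without the 2 libraries farthest from the median of the first sample kind, r was 0.76, 0.67 and 0.72. For the middle relation the call was lost without the whole kidney 24 h libraries numbered 3 and 4 (r = 0.56).

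The other genes were correlated in some pairings. Npas2 was correlated between S1 tubules and whole kidney, with r of 0.71 (permutation p = 0.00028, adjusted 0.0042) and rho of 0.75 (p = 0.00017, adjusted 0.00255). Nfil3 was correlated between the same kinds, with r of 0.61 (permutation p = 0.00136, adjusted 0.0068) and rho of 0.63 (p = 0.00181, adjusted 0.00679). Clock was correlated between glomeruli and S1 tubules, with r of 0.72 (permutation p = 0.00369, adjusted 0.0111) and rho of 0.73 (p = 0.00371, adjusted 0.0111). Cry1 was correlated between S1 tubules and whole kidney, with r of 0.65 (permutation p = 0.00714, adjusted 0.0158) and rho of 0.58 (p = 0.02, adjusted 0.0429). Between glomeruli and whole kidney Cry1 passed by r alone (0.73, permutation p = 0.0213, adjusted 0.0398) and not by rho (0.55, p = 0.0503, adjusted 0.0943). In both kinds the sham 48 h libraries numbered 1 and 2 lay farthest from their group mean. They were at -1.26 and 1.05 in glomeruli and at -1.18 and 0.82 in whole kidney. Without the 2 farthest libraries r was 0.65 for Npas2, 0.55 for Nfil3, 0.77 for Clock, 0.60 for the first relation of Cry1 and 0.48 for the other. Each of these relations lost its call in at least 1 of the settings tried: those of Npas2 and Cry1 without the whole kidney 24 h libraries numbered 3 and 4, and those of Npas2, Nfil3 and Clock with the sham 24 h pair included. The 7 other relations did not pass.

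**Figure D4:**
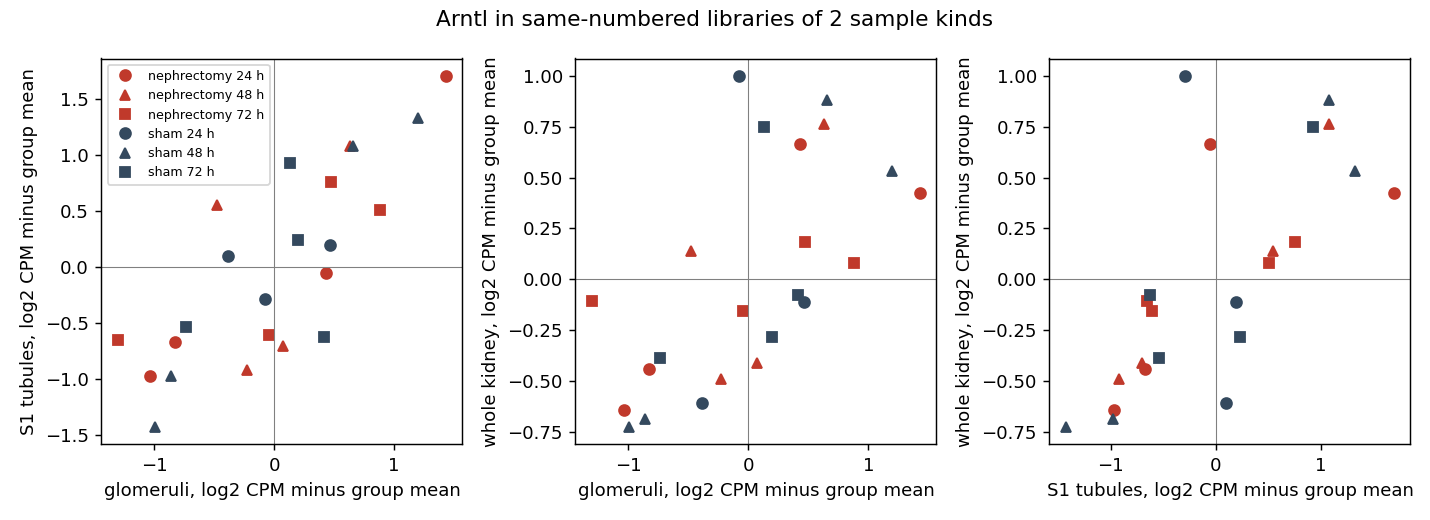
Arntl in same-numbered libraries of 2 sample kinds, each axis the log2 CPM minus the mean of the library's group, with nephrectomy in red, sham in dark and a marker for each time. The points run from lower left to upper right in each panel, with Pearson r of 0.79, 0.63 and 0.72 over 23 numbers.

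Within groups, Arntl was set against 7 clock genes in each sample kind, 21 relations in all. Genes outside this list were not set against Arntl within groups, so no share over all genes stands beside these calls. Dbp, a target of the Arntl pair, ran opposite to it in each, with r of -0.73 for glomeruli, -0.74 for S1 tubules and -0.83 for whole kidney (permutation p = 0.00777, 0.00078 and 0.00023, adjusted 0.0326, 0.00504 and 0.00483). Its rho was -0.75, -0.71 and -0.83 (permutation p = 0.00505, 0.00109 and 0.00032, adjusted 0.0212, 0.00763 and 0.00515). Without the 2 farthest libraries r was -0.82, -0.67 and -0.80. Arntl and Npas2 were correlated in glomeruli, with r of 0.69 (permutation p = 0.00063, adjusted 0.00504) and rho of 0.71 (p = 0.00049, adjusted 0.00515). This pair did not pass in S1 tubules (r = 0.13, permutation p = 0.557, adjusted 0.557) or in whole kidney (r = 0.45, permutation p = 0.0754, adjusted 0.144). Arntl and Clock were correlated in glomeruli, with r of 0.74 (permutation p = 0.00096, adjusted 0.00504) and rho of 0.70 (p = 0.00194, adjusted 0.0102). In S1 tubules Arntl and Clock did not pass (r = 0.51, permutation p = 0.0277, adjusted 0.0726). In whole kidney they passed by r (0.61, permutation p = 0.0117, adjusted 0.0409) and not by rho (0.49, p = 0.0501, adjusted 0.117). Nfil3 passed there by rho alone (0.64, permutation p = 0.00923, adjusted 0.0277), as did Nr1d1 (-0.71, permutation p = 0.00776, adjusted 0.0272). Without the 2 farthest libraries r was 0.66 for Npas2 and 0.67 for Clock in glomeruli and 0.42 for Clock in whole kidney. Both relations of glomeruli were lost with the sham 24 h pair included, and that of whole kidney was lost without the 24 h libraries numbered 3 and 4. Cry1 did not pass in any sample kind, with r of 0.21 to 0.24.

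Genes were also ranked by their likeness to Arntl, as Pearson r of log2 CPM over all libraries of a sample kind, among genes with a mean of at least 5 CPM. Dbp was the most opposed gene in glomeruli (r = -0.78) and in S1 tubules (-0.83), and the next to most opposed in whole kidney (-0.88) after Per3 (-0.90). Tef (-0.80) and Nr1d2 (-0.70) followed there. In glomeruli Prdm16 (-0.74), Ciart (-0.74) and Fzd7 (-0.67) followed Dbp, and in S1 tubules Cldn2 (-0.69), Cacna1a (-0.65) and Ccnd1 (-0.64). The most alike were Nipal1 (0.81), Pcdh12 (0.75), Sf3a3 (0.74) and Il6r (0.71) in glomeruli, Ndrg1 (0.75), Fat3 (0.70), Slc16a1 (0.70) and Cldn1 (0.65) in S1 tubules, and Scd2 (0.71), Jdp2 (0.69) and Tmem56 (0.68) in whole kidney. Npas2 had a higher r there (0.77), but its mean of 3.06 CPM kept it out of the ranking.

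Of 26 other clock genes, 23 to 25 were tested per comparison. Between times after nephrectomy, 4 of 23 passed in whole kidney by edgeR, beside 0.638% of all genes: Per2, Per3, Tef and Wee1. Their fitted differences from 24 h were positive at 48 h and negative at 72 h, opposite in sign to those of Arntl and Npas2. Per2, a repressor of the Arntl pair, differed from 24 h by 0.96 at 48 h and by -0.49 at 72 h (log2, adjusted p = 0.00084). In S1 tubules 4 of 25 passed (Per2, Per3, Wee1 and Per1), beside 1.41% of all genes. In glomeruli 1 of 24 passed, beside 0.00893% of all genes: Per2, with differences of 1.10 and -0.89. Between surgeries Per1 passed in whole kidney at 24 h, higher after nephrectomy (1.61 ± 0.34 SE, edgeR adjusted p = 0.0466), beside 0.236% of all genes. Over the 3 times in whole kidney 4 of 23 passed, beside 2.86% of all genes. Timeless was higher after nephrectomy (0.78 ± 0.15 SE), and Dbp (-0.71 ± 0.17), Hlf (-0.56 ± 0.14) and Rora (-0.39 ± 0.10) were lower. The median log2 fold changes of these genes in whole kidney were -0.07, -0.04 and -0.18 at 24, 48 and 72 h, and of those between surgeries the one farthest from that of all genes was -0.44 in S1 tubules at 72 h, beside 0.13 for all genes.

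Between the 2 segments after sham surgery, 2 of 5 members passed, beside 39.7% of all genes tested (21.1% higher and 18.6% lower in glomeruli). The count of members is thus near the share of all genes. The test took the libraries of the 2 segments as independent, while the labels do not say whether same-numbered ones come from 1 rat. Clock averaged 186 ± 75.2 CPM of the library total in glomeruli and 134 ± 63.4 in S1 tubules (n = 11 each). Npas2 averaged 5.19 ± 2.94 CPM in glomeruli and 4.77 ± 2.02 in S1 tubules on the same scale. After TMM scaling over both segments, Clock had a log2 difference of -1.25 ± 0.25 (SE, edgeR adjusted p = 5.07e-05) and Npas2 of -1.59 ± 0.36 (0.000229), glomeruli minus S1 tubules. These signs depend on the scaling: with library totals alone they were 0.53 and 0.15, and the median of all genes was 2.37, against 0.69 with TMM. Relative to the median of all genes, Clock was at -1.94 with TMM and -1.84 with library totals, and Npas2 at -2.28 and -2.22. Mitochondrial genes took 9.87 to 22.9% of gene counts in glomerulus libraries and 41.3 to 72.3% in S1 libraries. Arntl (0.50), Cry1 (-0.05) and Nfil3 (0.17) did not pass with TMM, at -0.19, -0.74 and -0.52 relative to the median of all genes. In bulk samples such as these, fewer cells of a type and less RNA per cell cannot be told apart.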

How the data were processed

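Counts are whole numbers of reads per gene as deposited. The submitters' processing notes name HTSeq, SAMtools, STAR 2.4.0.1 and Trimmomatic 0.32. Genome build and strand use were not given in the sources used here. The authors also deposited RPKM values (segments) and FPKM values (whole kidney), which were used only to compare genes. Segments were amplified with NuGEN Ovation V2 and sequenced from 1 end, and whole kidney was made with stranded TruSeq kits and sequenced from both ends, per the labels. No molecular identifiers are named, so errors are those between libraries.

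Of 72 libraries, 70 were used. Genes were kept by filterByExpr (minimum count 10), and edgeR 4.0.16 (R 4.3.3) was fitted per sample kind to all its groups with TMM factors and tested by quasi-likelihood F. P-values were adjusted over all genes by Benjamini-Hochberg, with a threshold of 0.05, and the fit was tested on simulated data. Glomeruli and S1 tubules were also fitted together. The 5 summary entries were left out. Correlations used log2 CPM (prior count 2) and 100000 permutations within groups, adjusted per family. Named genes were all 5 members, the 4 most and 4 least like Arntl per sample kind (mean of at least 5 CPM, no LOC, RGD, AABR, ENSRNOG or Mir names) and up to 6 other clock genes per comparison. Of these, 1 gene is not reported here. Members and lists were chosen with earlier results of these data known. Among 108 pairs of libraries within groups, no 2 matched within sampling noise (chi-square over degrees of freedom of at least 5.99).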

Additional observations from a re-analysis of the deposited data

Results flagged for a closer look

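In 5 of 80 groups of 4 libraries (a gene in a group), 1 library lay far from the other 3. Chance flags about 1 in 20 such groups, and no explanation was tested. Arntl was at 7.31 CPM in S1 tubules of nephrectomy 24 h replicate 1, where the other libraries lay at 1.1 to 2.12 CPM. Npas2 was at 6.07 CPM in S1 tubules of nephrectomy 48 h replicate 3, above the others at 1.67 to 1.88 CPM. Npas2 was at 4.92 CPM in whole kidney of sham 72 h replicate 1, above the others at 2.28 to 2.7 CPM. Nfil3 was at 11.8 CPM in glomeruli of sham 72 h replicate 2, where the others had 5 to 6.14 CPM. Nfil3 was at 4.89 CPM in whole kidney of sham 24 h replicate 2, where the others had 1.08 to 1.34 CPM.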

How the results depend on the processing

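The signs of Arntl and Npas2 between nephrectomy and sham at 24, 48 and 72 h did not reverse under any setting run, while the counts of members called changed often, and the cause was not tested. DESeq2 called 2 members where edgeR called 0 in glomeruli between times after nephrectomy and after sham surgery, and 1 for the difference of the effect between times. Over all genes it called 2367, 609 and 8 there, against 2, 5 and 1 in edgeR. It called 2 in S1 tubules between times after nephrectomy (edgeR 1), and 1 each between times after sham surgery and at 72 h, with 3167, 162 and 744 of all genes (edgeR 259, 0 and 0). In whole kidney it called 1 between times after sham surgery, 2 for the difference of the effect, 2 at 24 h and 1 at 48 h, each against 0 in edgeR, with 324, 51, 307 and 166 of all genes (edgeR 12, 3, 37 and 0).

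Without the whole kidney 24 h libraries numbered 3 and 4, edgeR called 1 between times after sham surgery, 2 for the difference of the effect, 2 at 24 h and 1 over the 3 times, with 1673, 1830, 2645 and 785 of all 16122 genes. Library totals, an alternative chosen after seeing the data, left 0 between times after nephrectomy in S1 tubules and in whole kidney and called 4 between the segments, with 0, 0 and 21296 of all genes. That count in S1 tubules was also 0 without mitochondrial genes and with the sham 24 h libraries numbered 2. The labels do not say that numbers pair nephrectomy and sham libraries, and their deviations had r over 0.1 in 2 of 11 pairs in glomeruli, 5 of 11 in S1 tubules and 6 of 12 in whole kidney. All 4 pairs exceeded it in 1 comparison, whole kidney at 72 h (0.12 to 0.295), where the replicate block called 0 members, as without it. With the replicate block, 2 members each were called between times after nephrectomy in glomeruli and in S1 tubules, with 311 and 566 of all genes.

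With 1 library left out, the count of members between times after nephrectomy ran from 0 to 2 for glomeruli, 0 to 1 for S1 tubules and 0 to 2 for whole kidney. Over all genes the count ran from 2 to 1790, 0 to 2430 and 9 to 93 there. In whole kidney the count of members ran from 0 to 1 between times after sham surgery, for the difference of the effect, at 24 h and over the 3 times. Over all genes it ran from 4 to 365, 3 to 18, 1 to 364 and 242 to 1070 in these comparisons.

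Reversed fold changes between surgeries had been between -0.43 (Cry1 in S1 tubules at 24 h) and 0.41 (Clock in glomeruli at 24 h), and Clock, Npas2 and Cry1 reversed between segments. With the sham 24 h pair, Clock in glomeruli was -0.45 at 24 h and -0.07 over the 3 times, Npas2 there -0.07 over the 3 times, and Nfil3 in S1 tubules 0.25 at 24 h. With the replicate block, glomeruli had Clock at 0.01 and Cry1 at 0.11 at 48 h and Arntl at -0.04 over the 3 times, and S1 tubules had Nfil3 at 0.11 at 24 h. With library totals, Arntl in glomeruli was -0.02 over the 3 times, S1 tubules had Nfil3 at 0.03 at 24 h and Cry1 at -0.06 at 72 h, and whole kidney had Clock at -0.24 and Nfil3 at -0.45 at 24 h, Clock at 0.01 at 48 h and Nfil3 at -0.02 over the 3 times. Between segments library totals gave Npas2 0.15, Clock 0.53 and Cry1 1.61. DESeq2 and its size factors in edgeR gave Nfil3 0.02 at 24 h and Clock -0.05 at 48 h in S1 tubules and Cry1 0.23 between segments, which was 0.02 without a filter on low counts. Without the whole kidney 24 h libraries numbered 3 and 4, Nfil3 was -0.04 at 24 h and Clock 0 over the 3 times, and the correlations of Npas2 between glomeruli and whole kidney and of Clock between S1 tubules and whole kidney were -0.2 and -0.0734. With the pair, that of Clock between glomeruli and whole kidney was -0.108.

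With 1 library left out, signs reversed within these ranges. In glomeruli Arntl ran from -0.17 to 0.29 over the 3 times, Clock from -0.16 to 0.23 at 48 h and -0.14 to 0.56 at 72 h, and Cry1 from -0.32 to 0.4 at 48 h. In S1 tubules Clock ran from -0.08 to 0.21 at 48 h and -0.26 to 0.22 at 72 h, Cry1 from -0.69 to 0.01, -0.5 to 0.22 and -0.25 to 0.4 at 24, 48 and 72 h, and Nfil3 from -0.34 to 0.26 at 24 h. In whole kidney Clock ran from -0.01 to 0.16 at 24 h, Cry1 from -0.23 to 0.32 at 48 h and -0.17 to 0.01 over the 3 times, and Nfil3 from -0.15 to 0.95 at 24 h and -0.06 to 0.37 over the 3 times. Between segments Cry1 ran from -0.19 to 0.09. With 4 libraries a group or fewer and a spread between libraries of 62.5% in glomeruli and 71.3% in S1 tubules (24.8% in whole kidney, edgeR's common estimate), small changes in the segments were beyond reach.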
